A study of Mus musculus with 4 samples.

Results

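Rmst, Miat, Prox1os and Six3os1 are long noncoding RNAs of the developing mouse forebrain, and their levels were compared between 4 regions and between progenitors and newborn neurons. The members were chosen by symbol from a list of 5, of which 4 were found among the 43346 features of the count matrices, and Sox2ot, the fifth, was not analysed here. Each of 4 libraries of single cells came from 1 region of wild-type (wt) brains at E12.5, namely the cortex (CTX) or 1 of the ganglionic eminences, which are the lateral one (LGE), the medial one (MGE) and the caudal one (CGE). No library carried a treatment or an induced mutation. The tissue of several embryos was pooled for a library, and there was 1 library per region. As a result no test between regions was possible, and the intervals given for levels and shares cover counting error only.

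Long noncoding RNAs are transcripts without a protein product, and many of them lie beside a developmental transcription factor, on its opposite strand or sharing its promoter region. Prox1os and Six3os1 are of this kind, next to Prox1, a homeobox factor of interneurons born in the caudal eminence, and Six3, a homeobox factor of the ventral forebrain and of striatal projection neurons. Rmst and Miat are annotated as intergenic. Rmst RNA is known to bind the progenitor factor Sox2, and Miat (also called Gomafu) is a nuclear RNA that is known to bind splicing factors. In the telencephalon, progenitors of the ventricular zone (VZ) express Nestin, dividing intermediate cells lie in the subventricular zone (SVZ), and neurons in the mantle zone (MZ) express Dcx.

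After filtering, 3184 to 4720 cells per library were kept (of 4301 to 6953 barcodes), with 23244023 to 37142592 unique molecular identifiers (UMIs) per library and a median of 6933.5 to 8241 UMIs per cell. Region markers followed the labels: Emx1 was at 189 CPM in CTX (CPM being UMI counts scaled to the same total in every group of cells) and at 4.78 or less elsewhere, Nkx2-1 at 789 in MGE, Isl1 at 257 in LGE and Nr2f2 at 581 in CGE, each the highest of the 4 libraries. High-Nestin and high-Dcx cells had ln(1 + UMIs per 10000) of Nes or Dcx above 1.5, with cells past both gates left out. These gates held 47.3 to 76.2% of the kept cells. Between 2 and 8 barcodes were shared by the kept cells of any pair of libraries. Markers of some other cell types moved with the stage. The summed level of 7 microglia or macrophage markers was 1.20 to 186 CPM in the high-Nestin cells of the libraries (2 to 7 markers detected). In the high-Dcx cells it was 0.611 to 9.83 (3 to 7 detected), and in LGE it differed little (1.20 against 0.782). The sum of 8 red blood cell markers was 21.9 to 90.3 CPM in high-Nestin and 23.2 to 90.4 in high-Dcx cells. The part of these markers in the member levels was not tested. In the kept cells that carried non-neural markers (13 to 56 per library) Prox1os was at 0 in 3 libraries, Rmst at 0 in LGE and MGE, 12.7 in CTX and 17.7 in CGE (3 UMIs of 1 cell), and Miat at 16.5 to 31.5 CPM, below its level in the high-Nestin and high-Dcx cells of every library. Six3os1 was in 1 such cell in LGE (7 UMIs) and 1 in CGE (13 UMIs).

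Rmst is transcribed from chromosome 10 (GRCm38, 92071037 to 92165170, minus strand, a long intergenic noncoding gene in GENCODE M21). Its span holds the genes of 2 microRNAs, whose mature 5p arms are shown because they lie within the transcribed span. Both are listed 5′ to 3′ from RefSeq (GRCm38.p6), with the seed (bases 2 to 8) in capitals, and the seeds differ. The libraries did not measure mature microRNAs.
mmu-miR-135a-5p (chr10:92072141-92072163, minus strand): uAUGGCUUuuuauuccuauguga
mmu-miR-1251-5p (chr10:92137190-92137210, minus strand): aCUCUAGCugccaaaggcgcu

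Rmst was a cortical and caudal RNA. Over all kept cells it was at 61.1 CPM in CTX (95% Poisson interval 58.3 to 64.0), 19.5 in LGE (18.0 to 20.98), 15.3 in MGE (14.1 to 16.6) and 78.8 in CGE (75.2 to 82.5). CGE was 1.29-fold above CTX (1.21 to 1.38), and CTX was 3.14-fold above LGE (2.87 to 3.43). The order of the levels was CGE, CTX, LGE and MGE, and each neighbour in it differed beyond counting error.

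The stage at which Rmst appeared was not the same in cortex and eminences. High-Nestin cells of CTX held Rmst at 48.7 CPM (360 UMIs in 865 cells), those of LGE at 2.81 (14 UMIs in 583 cells), those of MGE at 2.41 (12 UMIs in 513 cells) and those of CGE at 1.99 (3 UMIs in 164 cells). Cortical progenitors stood 17.3-fold above those of LGE (10.2 to 32.1), while the 3 eminences could not be told apart at this depth. Of the 14 UMIs of LGE progenitors, 12 came from 1 cell. Barcodes of red blood cells, which were not kept, held Rmst at 1.66 CPM in LGE, 4.74 in MGE and 17.3 in CGE (1 to 5 UMIs), and in each eminence the interval overlapped that of the progenitors. In high-Dcx cells Rmst was at 77.3, 33.5, 28.5 and 93.4 CPM in the same order of libraries, so that every eminence had reached a level above its progenitors. The ratio of high-Dcx to high-Nestin cells was 1.59 in CTX (1.38 to 1.82), 11.9 in LGE (7.04 to 21.99), 11.8 in MGE (6.68 to 23.0) and 46.9 in CGE (16.0 to 228). Cells outside both gates lay between these stages in every library, at 59.0, 12.4, 8.38 and 59.6 CPM in that order.

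**Figure D1:**
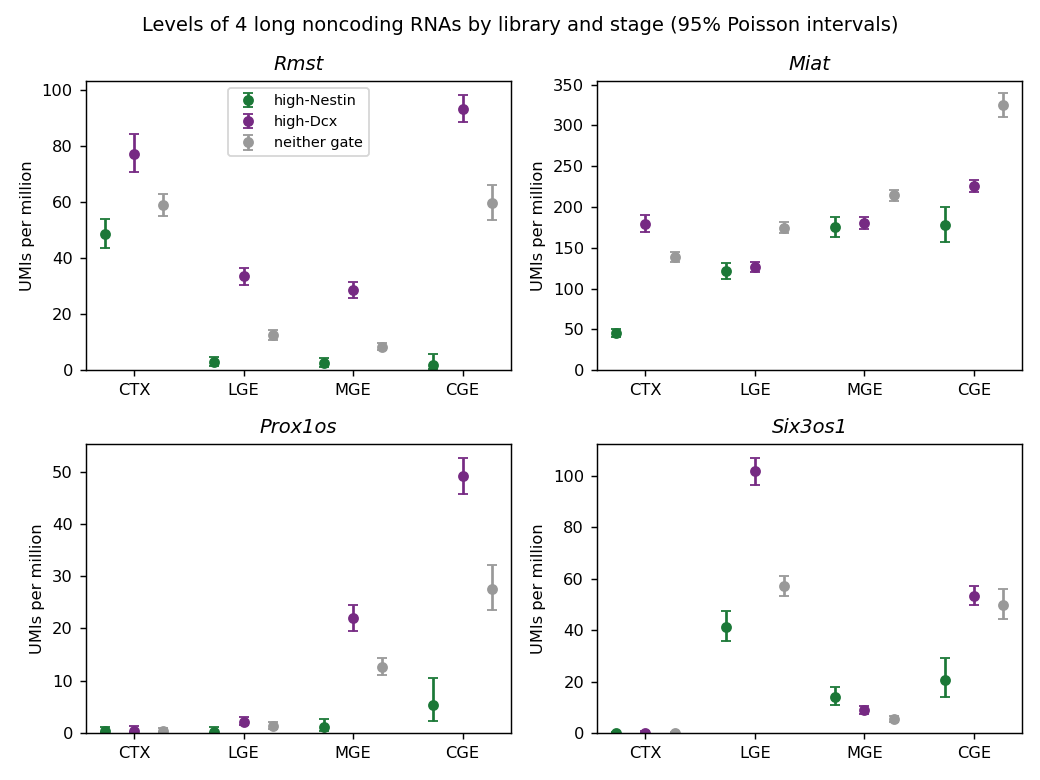
Levels of the 4 long noncoding RNAs in CPM (vertical axis, linear, from 0) in high-Nestin, high-Dcx and remaining cells of each library, with 95% Poisson intervals as bars. Rmst in high-Nestin cells is high in CTX alone (48.7 against 1.99 to 2.81 in the eminences). Prox1os is highest in high-Dcx cells of CGE (49.1), and Six3os1 is at 0 in every CTX group.

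The stage difference was tested on counts summed per library and stage, with the library as a block (edgeR's quasi-likelihood test, Benjamini-Hochberg adjustment over 12320 genes, called at an adjusted p below 0.05 and an absolute log2 fold change above 0.25). Of the 4 members, Rmst and Prox1os rose in high-Dcx cells and none fell, where 28.0% of all genes tested were higher and 27.6% lower. Rmst rose by a log2 fold change of 2.84 ± 0.70 (SE, adjusted p = 0.0167), higher in 4 of 4 libraries. The call rested on single libraries: without LGE the adjusted p was 0.0649, and without MGE 0.0666.

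Among 3 gated classes of the eminences, Rmst was highest in MZ cells. VZ cells were those past the Nes gate and not in the SVZ class, including cells past both gates that the high-Nestin group leaves out. SVZ cells were past the Dcx gate with 2 cycling genes (Ccnd2, Mki67) over 0.5 on the scale of the gates and 2 genes of mature neurons (Rbfox3, Mapt) under it. MZ cells were past the Dcx gate with progenitor and cycling genes (Nes, Hes5, Mki67, Ccnd1, Ccnd2) under 0.5. Rmst was at 4.00, 1.16 and 66.7 CPM in VZ, SVZ and MZ cells of LGE. It was at 2.37, 0 and 49.8 in MGE, where 0 UMIs allow up to 1.56 CPM in SVZ cells. In CGE the levels were 7.65, 5.46 and 129, where the 176 VZ cells held 12 Rmst UMIs and the 164 high-Nestin cells 3 of them. In each eminence MZ cells stood apart, and the intervals of VZ and SVZ cells overlapped. Against the mean of the other classes (the same test on 9 sums, 11702 genes) Rmst was higher in MZ cells by 4.91 ± 0.21 on the log2 scale (adjusted p = 5.2e-08), where 30.6% of genes were higher and 59.1% were called in either direction. In SVZ cells its difference was -3.53 ± 0.39 (adjusted p = 0.000142), where 25.8% of genes were called in either direction. In VZ cells it was -1.37 ± 0.38 (adjusted p = 0.0117), where 30.1% of genes were higher and 55.7% were called in either direction, and this call was lost without LGE (0.0699), without CGE (0.104) and at 3000 UMIs per cell (0.0509).

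**Figure D2:**
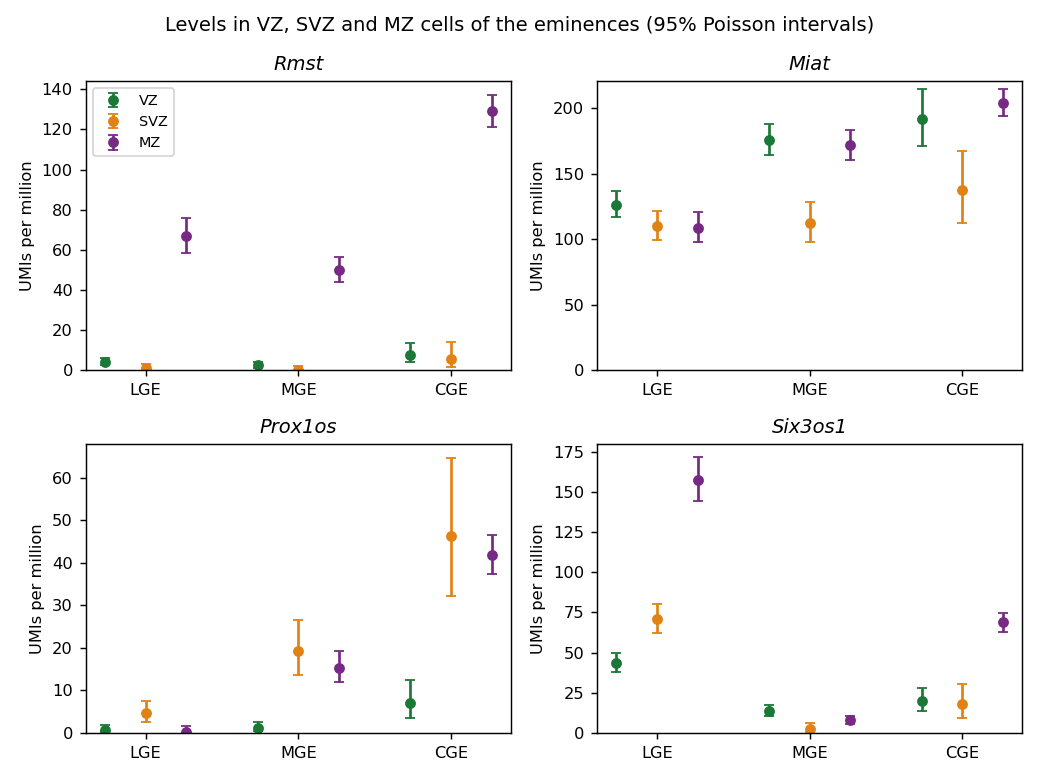
Levels of the 4 members in CPM (linear axis from 0) in VZ, SVZ and MZ cells of the 3 eminence libraries, with 95% Poisson intervals. Rmst sits at 7.65 or below in all VZ and SVZ groups and at 49.8 to 129 in MZ cells, while Prox1os in MGE and CGE is already present in SVZ cells (19.3 and 46.4).

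Rmst was not spread evenly over neurons. To compare cells at equal depth, each cell was thinned to 3000 UMIs, which left out 11 to 51 high-Dcx cells per library. At this depth an Rmst UMI was found in 16.9, 8.47, 5.49 and 16.0% of the high-Dcx cells of CTX, LGE, MGE and CGE (29.4, 13.3, 8.45 and 21.7% before thinning). Among the 55 non-neural cells of CTX that remained at this depth it was found in 1.82% (5.36% of 56 before thinning). A single CGE neuron held up to 23 Rmst UMIs.

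Neurons with a UMI of Ebf1, a factor of striatal projection neurons, carried Rmst more often. In MGE 38.8% of 85 Ebf1 cells had an Rmst UMI (28.4 to 50.01%, exact binomial interval) against 4.09% of the other high-Dcx cells. In CGE the shares were 35.5 and 14.5%, and in LGE 12.7 and 7.03%. The intervals of the 2 arms did not overlap in any of these libraries. For Lhx6, a factor of MGE-derived interneurons, the order was turned: 3.24% of Lhx6 cells and 9.29% of the rest carried Rmst in MGE, 5.84 and 18.1% in CGE, and 2.52 and 8.85% in LGE. In CTX, 26.9% of the 290 high-Dcx cells with Eomes, a factor of cortical intermediate progenitors, had an Rmst UMI. Of the 474 without Eomes, 10.8% had one. Rmst was not particular to cells with Ebf1. In CGE 38.4% of 86 cells with the glutamatergic genes Neurod2 or Neurod6 had an Rmst UMI, against 15.1% of the rest. The shares were 17.6 and 9.23% in CTX, and 20 and 8.32% in LGE (25 cells with either gene), with overlapping intervals in each.

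**Figure D3:**
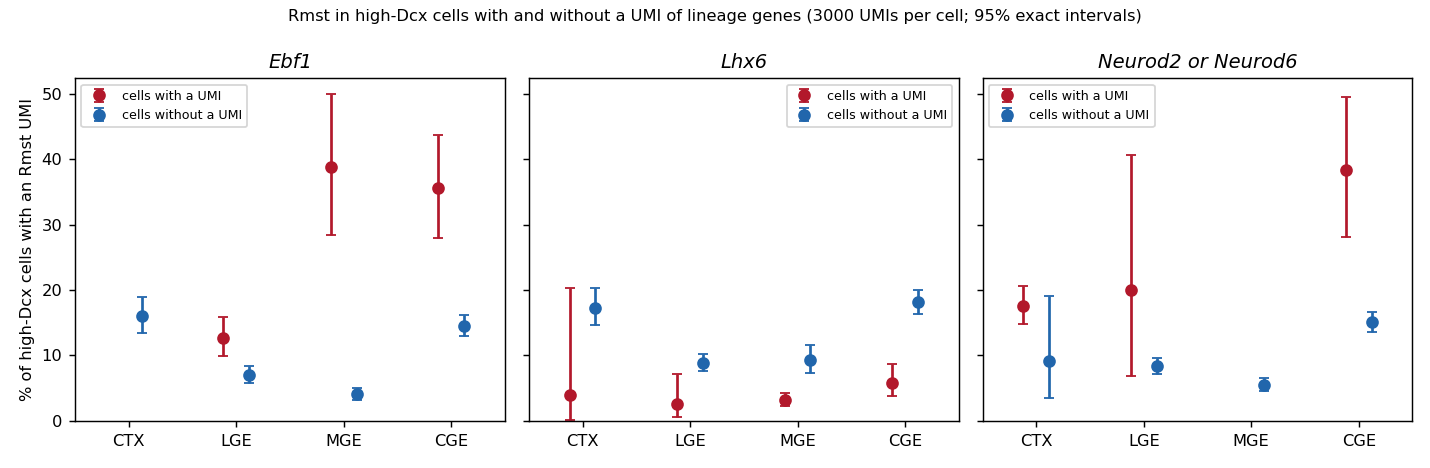
Share of high-Dcx cells with an Rmst UMI (vertical axis, %, from 0) among cells with and without a UMI of Ebf1, Lhx6, or Neurod2 or Neurod6, by library, at 3000 UMIs per cell, with 95% exact binomial intervals and only arms of 20 cells or more. Rmst is found in 38.8% of Ebf1 cells against 4.09% of the rest in MGE, and less often in cells with Lhx6 in MGE and CGE. In CGE it is found in 38.4% of cells with Neurod2 or Neurod6 against 15.1% of the rest.

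The genes that differ between high-Dcx cells with and without an Rmst UMI were tested on thinned counts summed per library (116 to 356 cells with Rmst per library). Of 9408 genes, 6 were higher (0.0638%) and 22 lower (0.234%). Among the most changed genes at 50 CPM or more, Lypd1, a modulator of nicotinic receptors, rose by 2.59 ± 0.32 on the log2 scale (80.2 against 13.5 CPM, adjusted p = 0.0189). Pcdh7, a protocadherin, rose by 1.33 ± 0.19 and Apbb2 by 1.22 ± 0.15, each higher in 4 of 4 libraries. Maf, a factor of MGE interneurons, fell by 2.78 ± 0.34, Nusap1, a spindle protein, by 2.64 ± 0.39, and Nxph1, a neurexin ligand, by 2.30 ± 0.28, each lower in 4 of 4 libraries. Of the 7 GABAergic markers tested, Dlx1 and Dlx2 fell (log2 fold change -1.38 and -1.50) and none rose, with a median of -0.44 where the median of all genes was -0.00078. Of 7 striatal markers none passed, and their median was 1.52, with Ebf1 at 1.85 (adjusted p = 0.137) and Isl1 at 1.52 (adjusted p = 0.157). The counts of calls turned on each library: without CTX 643 genes were higher and 555 lower, and without LGE, without MGE or without CGE at most 1 was higher and at most 3 were lower.

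Miat lies on chromosome 5 (112213228 to 112229395, minus strand, a long intergenic noncoding gene). A part of it overlaps Gm26953 on the opposite strand, which had 1 to 4 UMIs per library. Its longest transcript, Miat-205 of 9163 bases, carries 6 copies of TACTAAC (read on the transcript strand only, with no overlap between copies), the repeat that splicing factors are known to bind. Of the 975 GENCODE M21 transcripts that are at least as long, 2 hold 6 or more copies (0.205%), and 71.4% hold none. The transcripts of Rmst, Prox1os and Six3os1 hold 0 copies. A pair of stretches that hold 5 of the copies are shown from the transcript, 5′ to 3′, with the repeat in capitals.
Miat-205, bases 5031 to 5082: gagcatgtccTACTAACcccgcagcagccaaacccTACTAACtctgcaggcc
Miat-205, bases 5579 to 5639: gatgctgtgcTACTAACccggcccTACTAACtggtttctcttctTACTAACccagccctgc

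Miat was found in every region and at both stages. Over all kept cells of CTX it was at 124 CPM (120 to 129), of LGE at 149 (145 to 153), of MGE at 196 (191 to 200) and of CGE at 249.2 (243 to 256). A UMI was present in 45.5, 53.5, 63.0 and 69.0% of the kept cells of these libraries. The rise from CTX to CGE held beyond counting error at each step.

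Progenitors of the cortex had less Miat than those of the eminences. High-Nestin cells held Miat at 45.1, 121, 175 and 178 CPM in CTX, LGE, MGE and CGE, and LGE stood 2.68-fold above CTX (2.34 to 3.07). MGE and CGE did not differ beyond counting error (1.02-fold, 0.88 to 1.17). High-Dcx cells held it at 179, 126, 180 and 226 CPM, and there LGE was the lowest. The ratio of high-Dcx to high-Nestin cells was 3.97 in CTX (3.51 to 4.50), 1.04 in LGE (0.951 to 1.15), 1.03 in MGE (0.952 to 1.11) and 1.27 in CGE (1.12 to 1.44). The stage test gave 0.67 ± 0.35 on the log2 scale (adjusted p = 0.151), so Miat was not called, although it was higher in 4 of 4 libraries. With both gates set at 2.0 it passed (0.89, adjusted p = 0.0419).

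Of the 3 groups that the gates made, cells outside both had the highest Miat level in each eminence (175 CPM for LGE, 214 for MGE, 325 for CGE). Among the gated classes of the eminences, VZ, SVZ and MZ levels were 126, 110 and 109 in LGE, 176, 112 and 172 in MGE, and 192, 138 and 204 in CGE. SVZ cells were the lowest in MGE and CGE. No class test called Miat. The value nearest the threshold was SVZ, at -0.33 ± 0.12 (adjusted p = 0.0634), which passed without LGE (-0.53, adjusted p = 0.0178).

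Among progenitors, cells with a Miat UMI had more RNA of the GABAergic markers tested, which CTX progenitors hardly held. In high-Nestin cells thinned to 3000 UMIs (56 to 171 cells with Miat per library), 132 of 6725 genes were higher with Miat (1.96%) and 84 lower (1.25%). Dll3, an inhibitory Notch ligand of cells leaving the progenitor state, rose by 1.40 ± 0.21 on the log2 scale (99.4 against 26.0 CPM, adjusted p = 1.3e-05) and was higher in 4 of 4 libraries. Rgs16, a regulator of G-protein signalling, rose by 1.35 ± 0.27, and Ric3, a receptor chaperone, by 1.32 ± 0.26. Tagln2, an actin-binding protein, fell by 1.54 ± 0.27, Mt3, a metallothionein, by 1.21 ± 0.12, and Cdc20, a mitotic regulator, by 1.01 ± 0.12, each lower in 4 of 4 libraries.

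All 4 GABAergic markers tested rose, Dlx1 by 1.16, Dlx2 by 0.86, Dlx5 by 1.17 and Gad2 by 1.17 on the log2 scale, and their median of 1.16 stood beside -0.00429 for all genes. In the high-Nestin cells of CTX these markers were at 0 (Gad2) to 1.22 CPM (Dlx5), so their rise describes the eminences. Of 7 progenitor markers Vim (-0.35) and Fabp7 (-0.94) fell, and the other 5 did not pass, among them Nes (-0.02, adjusted p = 0.939) and Sox2 (0.03, adjusted p = 0.896). Tubb3, a neuronal tubulin, rose by 0.71, the only one of 3 neuron markers tested that passed. With DESeq2, 33 genes were higher and 18 lower, and without LGE 44 and 27.

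The same split was made in high-Dcx cells. Of 10606 genes, 17 were higher with Miat (0.160%) and 22 lower (0.207%). Dll3 again rose (0.64 ± 0.09, 4 of 4 libraries), with Mfap4, a matrix protein, at 0.62 ± 0.08 and Sstr2, a somatostatin receptor, at 0.61 ± 0.13. The mitotic genes Spc25 (-0.92 ± 0.15), Tacc3 (-0.86 ± 0.15) and Tpx2 (-0.78 ± 0.14) fell, each in 3 of 4 libraries. Prox1 rose by 0.60 ± 0.11 (adjusted p = 0.0219), a call that was lost without LGE (0.229), without MGE (0.346), without CGE (0.283) or with DESeq2 (0.999913). Without LGE, MGE or CGE in turn at most 5 genes were higher and at most 2 lower, and without CTX 103 were lower. In CTX, 54.8% of high-Dcx cells with an Eomes UMI had a Miat UMI against 26.2% of cells without one, and 12.8% of cells with Reln, a gene of Cajal-Retzius neurons, against 39.8% of the rest.

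Prox1os lies on chromosome 1 (190170296 to 190217276, plus strand, annotated as antisense with 1 transcript of 828 bases). It starts inside Prox1, which runs the other way (190118035 to 190170714, minus strand), and 419 bases of the 2 genes overlap head to head, 133 of them exonic in both. Their 3′ ends, near which these libraries read transcripts, are 99241 bases apart.

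Prox1os followed the ventral and caudal regions. The kept cells of CTX, LGE, MGE and CGE held 12, 58, 546 and 947 UMIs of it, or 0.409, 1.64, 14.7 and 40.7 CPM. CGE was 2.77-fold above MGE (2.49 to 3.09) and MGE 8.97-fold above LGE (6.83 to 11.97). The order was the same as that of Prox1, at 4.13, 12.7, 76.4 and 139 CPM.

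Little of it was in high-Nestin cells. High-Nestin cells held 3, 1, 6 and 8 UMIs in the same order of libraries, and high-Dcx cells 3, 30, 314 and 770. In high-Dcx cells this made 0.458, 2.13, 21.9 and 49.1 CPM. Cells outside both gates held 6, 21, 223 and 165 UMIs. The ratio of high-Dcx to high-Nestin cells was 10.6 in LGE (1.77 to 434), 18.2 in MGE (8.25 to 49.9) and 9.25 in CGE (4.67 to 21.5), and CTX, with 3 UMIs at each stage, showed no stage difference at this depth (1.13, 0.15 to 8.44). In the stage test Prox1os rose by 3.32 ± 0.51 on the log2 scale (adjusted p = 0.00319), and Prox1 by 1.83 ± 0.35 (adjusted p = 0.00699). Both calls were lost without the library block (adjusted p = 0.0511 and 0.117).

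In MGE and CGE Prox1os was lowest in VZ cells and was present by the SVZ. In LGE it was highest in SVZ cells, and the intervals of VZ and MZ cells overlapped. In VZ, SVZ and MZ cells it was at 1.19, 19.3 and 15.3 CPM in MGE, and at 7.01, 46.4 and 41.8 in CGE. In LGE it was at 0.763, 4.64 and 0.297, from 1 UMI in MZ cells. The class test called it at -3.01 ± 0.46 in VZ (adjusted p = 0.000369), higher in SVZ by 1.93 ± 0.40 (adjusted p = 0.00626), where 14.0% of genes were higher, and higher in MZ by 1.08 ± 0.37 (adjusted p = 0.0276). The MZ call was lost without MGE (0.178), without CGE (0.256) and with DESeq2 (0.134), and at 3000 UMIs per cell neither the SVZ call (0.154) nor the MZ call (0.113) held. Prox1 was higher in SVZ by 2.01 ± 0.21 and was at -0.17 ± 0.22 in MZ (adjusted p = 0.523).

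The share of Prox1os among the RNA of the pair was not constant. Per 100 Prox1 UMIs there were 5.66 Prox1os UMIs in VZ cells of MGE (2.03 to 12.7), 15.5 in SVZ cells (10.6 to 21.95) and 35.5 in MZ cells (27.0 to 46.3). In CGE the values were 17.7 (8.42 to 34.0), 20.9 (14.0 to 30.3) and 35.4 (31.1 to 40.3). In these 2 libraries the MZ interval lay above the SVZ interval. LGE had 12.9 in VZ, 16.7 in SVZ and 7.14 in MZ cells, the last from 1 Prox1os and 14 Prox1 UMIs (0.169 to 46.9), and its 3 intervals overlapped. These are ratios of UMIs, compared between groups of cells and not read as ratios of molecules.

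**Figure D4:**
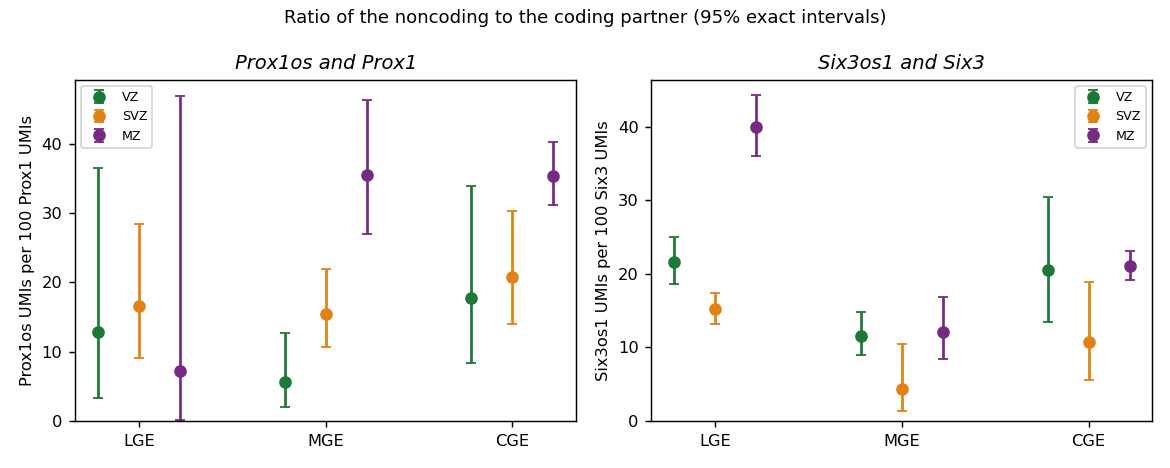
UMIs of the noncoding gene per 100 UMIs of its coding neighbour (vertical axis, linear, from 0) in VZ, SVZ and MZ cells of the eminence libraries, with 95% exact intervals. The Prox1os ratio in MZ cells of MGE and CGE is 35.5 and 35.4, and the Six3os1 ratio in LGE goes from 15.2 in SVZ to 40.0 in MZ cells.

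High-Dcx cells with Prox1 carried Prox1os more often than those without. At 3000 UMIs a Prox1os UMI was present in 2.50% of the LGE high-Dcx cells with Prox1 and in 0.578% of those without, in 13.3 and 3.67% in MGE, and in 23.1 and 7.14% in CGE. The intervals did not overlap in MGE and CGE, while in LGE they rested on 2 cells with both RNAs. Between high-Dcx cells with and without Prox1 in the 3 eminences, Prox1os rose by 1.91 ± 0.16 on the log2 scale (adjusted p = 9.9e-11), higher in 3 of 3 libraries. Pooled over these libraries it was at 82.6 against 14.6 CPM, and the regions did not have equal parts in the 2 arms. Of 10927 genes, 2.95% were higher and 4.60% lower. Prox1os passed under all 9 alternatives (1.79 to 2.27). Of the other members, Miat rose by 0.48 ± 0.08, and Rmst (-0.82 ± 0.16) and Six3os1 (-1.22 ± 0.19) fell.

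The cells with Prox1 differed from the rest in lineage, neuron and progenitor markers. All 7 striatal markers fell, among them Ebf1 (-2.85) and Isl1 (-1.87), while 3 of 6 markers of CGE and dorsal LGE rose (Nr2f2, Htr3a and Sp8, each in 2 of 3 libraries), and the medians of these lists were -1.85 and 0.46 beside -0.00644 for all genes. Of 6 neuron markers 4 fell with Prox1 (Stmn2, Tubb3, Mapt and Ina, list median -0.62), of 5 progenitor markers Vim and Fabp7 rose, and all 3 glutamatergic markers tested fell (median -1.40). The part of these genes in the Prox1os difference was not tested. Prox1os was found in 15.1% of the CGE neurons with Nr2f2 and in 3.70% of those without, and in 10.2 and 4.47% in MGE. It was found in 1.97% of the CGE neurons with Ebf1 against 11.9% of the rest.

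Six3os1 lies on chromosome 17 (85600651 to 85618398, minus strand, a processed transcript gene with 13 transcripts). It points away from Six3 (85613608 to 85629302, plus strand), whose main start in RefSeq is 2438 bases from that of Six3os1, and the annotated Six3 gene begins within it, so that 106 exonic bases are shared on opposite strands. The 250 bases before each start are shown because the levels of the pair moved together. They are from RefSeq (GRCm38.p6), 5′ to 3′ on the strand of each gene, with matches to the motifs named after them, on either strand, in capitals.
Six3os1 (chr17:85618397-85618646, minus strand): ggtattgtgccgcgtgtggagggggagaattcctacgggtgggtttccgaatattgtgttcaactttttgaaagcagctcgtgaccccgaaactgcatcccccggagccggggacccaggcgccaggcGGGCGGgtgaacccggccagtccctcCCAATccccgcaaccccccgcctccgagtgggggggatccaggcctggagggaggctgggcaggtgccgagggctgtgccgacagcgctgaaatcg
Six3 (chr17:85620584-85620833, plus strand): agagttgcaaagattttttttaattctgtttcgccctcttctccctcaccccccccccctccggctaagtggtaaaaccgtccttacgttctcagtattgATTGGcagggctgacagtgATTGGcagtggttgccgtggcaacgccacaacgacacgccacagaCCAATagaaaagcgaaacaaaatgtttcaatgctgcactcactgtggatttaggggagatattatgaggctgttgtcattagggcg
CCAAT matched once before Six3os1 and at 3 places before Six3, GGGCGG once before Six3os1 and 0 times before Six3, and TATAAA in neither. Among 32851 RefSeq windows of the same length, 33.8% held CCAAT, 32.7% GGGCGG and 12.4% TATAAA.

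Six3os1 was an RNA of the eminences, strongest in LGE. The kept cells of LGE held it at 72.6 CPM (69.8 to 75.5), those of CGE at 50.2 (47.4 to 53.2) and those of MGE at 7.83 (6.96 to 8.79), and those of CTX held 0 UMIs. The 0 UMIs of CTX allow up to 0.102 CPM, so MGE was at least 76.5-fold higher against this floor (61.8-fold as the exact lower limit of the ratio). LGE was 1.45-fold above CGE (1.35 to 1.55) and CGE 6.41-fold above MGE (5.63 to 7.31). Six3 had the same order, at 0, 317, 77.6 and 249.5 CPM in CTX, LGE, MGE and CGE.

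The change with stage had 1 sign in LGE and CGE and the other in MGE. In high-Nestin cells Six3os1 was at 41.3 CPM in LGE, 14.1 in MGE and 20.6 in CGE. In high-Dcx cells it was at 102, 8.86 and 53.5. The ratio of high-Dcx to high-Nestin cells was 2.47 in LGE (2.13 to 2.87), 2.60 in CGE (1.82 to 3.85) and 0.630 in MGE (0.467 to 0.856), and none of these intervals held 1. Six3 gave 2.10, 2.80 and 0.581 in LGE, CGE and MGE. The stage test over all libraries gave 0.79 ± 0.46 on the log2 scale for Six3os1 (adjusted p = 0.201) and 0.68 ± 0.48 for Six3 (adjusted p = 0.277), and neither was called. Without MGE both passed, Six3os1 at 1.43 (adjusted p = 0.00963) and Six3 at 1.36 (adjusted p = 0.00981).

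High-Dcx cells with Six3os1 held more UMIs of it per cell than high-Nestin cells with it. In LGE, 24.7% of high-Nestin cells held a UMI with 1.43 UMIs per positive cell, and 19.6% of high-Dcx cells held one with 3.61 UMIs per positive cell and up to 24. In MGE the shares were 9.94 and 2.22%, with 1.37 and 2.65 UMIs per positive cell, and in CGE 17.7 and 11.5%, with 1.07 and 3.24. High-Nestin cells were deeper than high-Dcx cells (median 8428 against 6433 UMIs in LGE). At an equal 3000 UMIs the shares were 10.3 and 14.1% in LGE, 3.92 and 1.66% in MGE, and 4.32 and 8.70% in CGE.

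In VZ, SVZ and MZ cells Six3os1 was at 43.5, 70.7 and 158 CPM in LGE, at 13.8, 2.60 and 7.87 in MGE, and at 19.8, 17.7 and 68.8 in CGE. MZ cells were highest in LGE and CGE and VZ cells in MGE. The class test called MZ at 1.20 ± 0.36 (adjusted p = 0.0163), a call that was lost without LGE (0.0648), without CGE (0.147) and with DESeq2 (0.112). Per 100 Six3 UMIs, LGE had 21.6 Six3os1 UMIs in VZ cells (18.6 to 24.9), 15.2 in SVZ cells (13.2 to 17.4) and 40.0 in MZ cells (36.1 to 44.2). In CGE the ratios were 20.5, 10.7 and 21.1, and in MGE 11.6, 4.35 and 12.1, so the SVZ had the lowest ratio in each eminence, with an interval apart from both other classes in LGE alone.

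In neurons, Six3os1 was found mostly in cells with Six3. At 3000 UMIs a Six3os1 UMI was present in 37.4% of the LGE high-Dcx cells with Six3 and in 3.58% of those without, in 13.9 and 0.467% in MGE, and in 39.3 and 1.50% in CGE. The intervals did not overlap in any library. Six3os1 rose with Six3 by 5.12 ± 0.22 on the log2 scale (283 against 6.73 CPM, adjusted p = 0.00017), higher in 3 of 3 libraries, where 0.361% of 10798 genes were higher and 0.269% lower, and passed under all 9 alternatives (4.91 to 5.61).

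The shares of high-Nestin cells with Six3os1 were 13.3% with Six3 and 8.13% without in LGE, 4.58 and 3.69% in MGE, and 10.3 and 2.44% in CGE, and the intervals overlapped in all 3 libraries. The difference was 0.94 ± 0.29 on the log2 scale (adjusted p = 0.332), where 0.0425% of 7055 genes were higher and 0.0142% lower. It passed with another thinning draw (1.28, adjusted p = 0.0113), with cells thinned less deeply (1.05, adjusted p = 0.0263) and with cells at their own depth (1.23, adjusted p = 0.00051). The difference between stages was not tested.

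**Figure D5:**
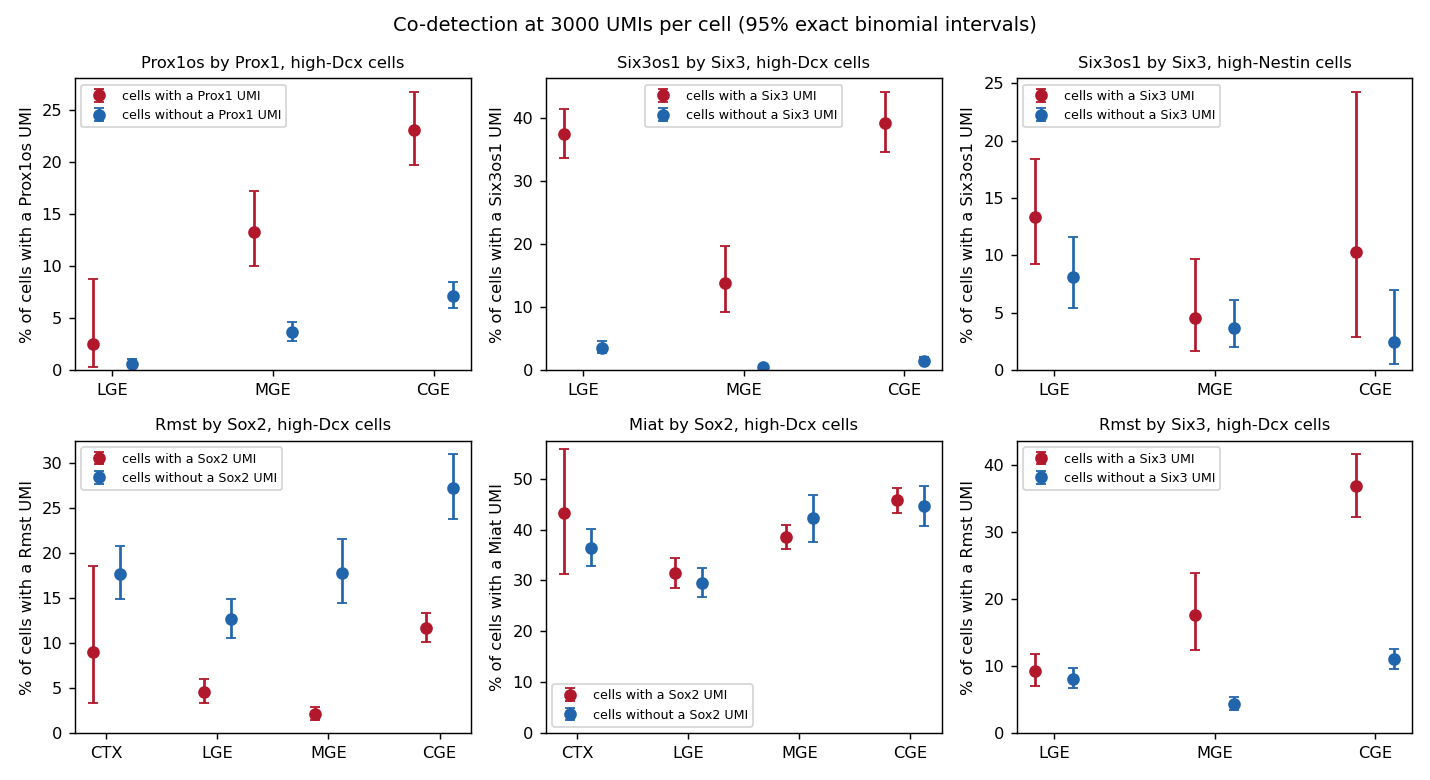
Share of cells with a UMI of the long noncoding RNA (vertical axis, %, linear from 0) among cells with and without a UMI of a protein-coding gene, by library, at 3000 UMIs per cell, with 95% exact binomial intervals. In high-Dcx cells Six3os1 is found in 13.9 to 39.3% of cells with Six3 and in 0.467 to 3.58% of those without, Rmst is less frequent in cells with Sox2 in LGE, MGE and CGE, and Miat does not differ by Sox2 beyond its intervals.

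The neurons with Six3os1 were set apart by lineage genes. In 35 to 280 high-Dcx cells with Six3os1 per library, 162 of 10800 genes were higher (1.50%) and 166 lower (1.54%). Beside Six3 itself (4.13 ± 0.18, 1904 against 111 CPM), Sstr2, a somatostatin receptor, rose by 3.18 ± 0.21, and Tshz2, a zinc finger factor, by 2.66 ± 0.24, in 3 of 3 libraries. Maf (-4.19 ± 0.33), Etv1, an ETS factor (-4.00 ± 0.46), and Nxph1 (-3.67 ± 0.27) fell in 3 of 3 libraries. With DESeq2, 68 genes were higher and 39 lower. Without MGE 99 genes were higher and 89 lower, without CGE 65 and 48, and without LGE 154 and 109.

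Of 6 markers of the MGE lineage, 5 fell with Six3os1 (Lhx6, Lhx8, Npy, Nkx2-1 and Sst), with a median of -1.94 beside -0.0301 for all genes. The striatal list divided. Foxp1 (0.76), Isl1 (0.84), Zfp503 (1.26) and Six3 rose, while Ebf1 (-1.86) and Tac1 (-4.28), genes of the direct-pathway projection neurons, fell. The Ebf1 difference was not alike in the libraries: 1.98% of LGE neurons with Ebf1 had Six3os1 against 18.3% of those without, whereas in MGE the shares were 8.24 and 1.38%.

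Rmst was higher in neurons with Six3os1, while the reverse split was not called with all 4 libraries. In high-Dcx cells with Six3os1, Rmst rose by 1.97 ± 0.20 on the log2 scale (175 against 46.7 CPM, adjusted p = 1.8e-11), higher in 3 of 3 libraries, and passed under all 7 alternatives (1.57 to 2.46). An Rmst UMI was present in 9.24% of LGE neurons with Six3 and 8.12% without, in 17.6 and 4.31% in MGE, and in 36.9 and 11.03% in CGE. The intervals overlapped in LGE alone. Split by Six3, Rmst was at 1.56 on the log2 scale (adjusted p = 0.0826) and was not called, a result that held under 5 of 9 alternatives. Split by Rmst, Six3os1 was at 2.30 ± 0.46 (adjusted p = 0.0911) and Six3 at 2.09 ± 0.43 (adjusted p = 0.101). Neither passed with all 4 libraries, and both passed without CTX, which has 0 UMIs of the pair (2.15, adjusted p = 0.00164, and 2.02, adjusted p = 0.00181).

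The shares with Miat were compared between cells with and without Rmst. Over all kept CTX cells at 3000 UMIs, a Miat UMI was present in 33.9% of the cells with Rmst (29.5 to 38.5%) and in 23.8% of the rest (22.3 to 25.4%). Among high-Dcx cells, a Miat UMI was present in 47.3% of the CTX neurons with Rmst and in 35.0% of those without (38.4 to 56.3% and 31.3 to 38.8%, overlapping), in 29.8 and 30.6% in LGE, 41.4 and 39.2% in MGE, and 44.4 and 45.6% in CGE. The difference of Miat between neurons with and without Rmst was 0.09 ± 0.13 on the log2 scale (adjusted p = 0.852).

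Sox2, whose protein binds Rmst RNA, was at 582 CPM in high-Nestin cells of CTX and at 822 to 876 in those of the eminences, and at 35.1, 469, 842 and 690 in high-Dcx cells of CTX, LGE, MGE and CGE. Neurons without a Sox2 UMI carried Rmst more often. In high-Dcx cells with and without Sox2, the shares with Rmst were 8.96 and 17.6% (CTX), 4.53 and 12.6% (LGE), 2.06 and 17.7% (MGE), and 11.6 and 27.2% (CGE), with intervals that overlapped in CTX alone. Rmst fell with Sox2 by 1.67 ± 0.36 on the log2 scale (adjusted p = 0.0403), lower in 4 of 4 libraries. Pooled over the libraries it was at 38.6 against 92.3 CPM. Of 10437 genes, 1.37% were higher and 2.00% lower. The Rmst call was lost without CTX (0.0593), without LGE (0.130) and with cells at their own depth (0.0654). Miat was at 0.19 ± 0.13 (adjusted p = 0.565). Striatal markers moved with this split, 5 of 7 falling with Sox2 (Ebf1 at -4.80 and Isl1 at -3.38), and their part in the Rmst difference was not tested. In high-Nestin cells Miat differed by 0.07 ± 0.18 with Sox2 (adjusted p = 0.969), where 0.348% of 8622 genes were higher and 0.568% lower, the latter with all 4 endothelial markers tested. In high-Nestin cells only CTX held enough Rmst to compare, and there 9.47% of cells with Sox2 and 13.8% of cells without it had an Rmst UMI.

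Other long noncoding RNAs gave the setting for these levels. Of a list of 30, 23 symbols matched and 14 passed the filter, and of these 9 rose in high-Dcx cells and 4 fell, with a median of 1.09 beside 0.0160 for all genes. Snhg11 (3.97), Meg3 (1.78), Mir124-2hg (1.74) and Malat1 (1.11) were among those that rose. Emx2os (-2.22), H19 (-2.29), Neat1 (-1.14) and Pantr1 (-1.25) fell. The rise of Rmst and of Prox1os lay within the range of this list.

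Of the 6 genes whose proteins are reported to bind Rmst or Miat RNA, Celf3, a splicing regulator of neurons, rose by 4.03 in high-Dcx cells. Qk (-1.26), Sf1 (-0.44) and Srsf1 (-0.38) fell, while Hnrnpa2b1 (-0.10, adjusted p = 0.288) and Sox2 (-1.05, adjusted p = 0.236) did not pass. Between progenitors with and without Miat, the lowest adjusted p of the 5 tested was that of Qk, at -0.20 ± 0.08 (adjusted p = 0.157, unadjusted p = 0.00962). Between neurons with and without Six3os1, Qk fell by 0.70 ± 0.16 (adjusted p = 0.00227).

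Across the 8 sums of library and stage, the genes whose log2 levels were most like each member are given as a description, since the points share libraries and stages. For Rmst they were Cxadr, an adhesion protein (Pearson r = 0.978), Rnf187 (0.974) and Ppm1l (0.973). For Miat they were Nenf (0.954), Cdc42bpa (0.952) and Tsc22d3 (0.944). For Prox1os they were 5330434G04Rik (0.982), Ahi1 (0.973) and Klhdc10 (0.967), with Prox1 at 0.960. For Six3os1 they were Meis1, a homeobox factor of the striatal primordium (0.980), Six3 (0.977) and Cxxc4 (0.954). The neighbouring gene was thus among the 3 most alike for Six3os1 and not for Prox1os.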

How the data were processed

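Single cells of E12.5 CTX, LGE, MGE and CGE were profiled with 3′ droplet sequencing. UMI counts per gene and barcode were deposited by the authors as matrices from Cell Ranger (3.0.2 in the file headers, 3.0.0 in the submitters' processing notes) on mm10 (GRCm38), and the annotation release is not given in the sources used here. The labels describe a sort of live cells, and the study's methods do not describe one for these libraries.

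Cells with 1500 to 4500 genes, at most 5% mitochondrial and 1% Hbb UMIs were kept, and predicted doublets were removed (an expected share that grew with the number of barcodes). Levels are CPM with exact 95% Poisson intervals, ratios have exact conditional intervals and shares exact binomial (Clopper-Pearson) ones. A count of 0 was bounded by 3 UMIs.

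Raw counts were summed per library and cell group and tested with edgeR 4.0.16 (R 4.3.3, quasi-likelihood, TMM, filterByExpr, library as a block). Every adjusted p in the text is from that test, except where DESeq2 is named. The p-values measure how evenly a difference held over the regions, not a spread between embryos. Splits by a detected gene used cells thinned to 3000 UMIs (seed 1), needed 20 cells in each arm of at least 3 libraries, left the splitting gene out and were called at an adjusted p below 0.05. Rmst, Prox1os and Six3os1 in progenitors, Prox1os in neurons and Prox1 in progenitors did not reach this and were not tested. CPM printed beside the fold change of a split are pooled over its libraries. The fold change itself is fitted within libraries, so the values can differ. DESeq2 1.42.0 and other settings were alternatives. The scripts were tested on simulated data. Python 3.11.15, numpy 2.4.6, scipy 1.17.1 and pandas 2.3.3 were used for levels. Of 7 members and neighbours analysed here, 5 matched a RefSeq promoter.

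Named genes were the members, their neighbours and the fixed lists, plus the 3 most increased and 3 most decreased called genes at 50 CPM or more in each split by a member, and the 3 genes most correlated with each member. The members and lists were chosen with earlier results of these data known. Whether reads were counted by strand is not given in the sources used here, so values of overlapping antisense genes are uncertain.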

Additional observations from a re-analysis of the deposited data

Results flagged for a closer look

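The stage difference of Six3os1 and of Six3 went in opposite directions in different eminences, which is what marked them for a closer look. The ratio of high-Dcx to high-Nestin cells for Six3os1 was 2.47 in LGE and 2.60 in CGE against 0.630 in MGE. For Six3 it was 2.10 in LGE and 2.80 in CGE against 0.581 in MGE. With 1 library per region the difference between regions was not tested.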

How the results depend on the processing

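No paired analysis was possible because the labels give no replicate numbers that the regions share. The stage, class and split tests compare groups of cells within each library instead, with the library as a block. With 1 library per region, embryo, dissection and region cannot be told apart, and low counts limit Prox1os and Rmst in progenitors.

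Of 744 recomputed values 587 kept their side of the threshold and, where called, their direction (counts within 1.5 times, levels within their interval). A value called in neither setting counted as kept even if its sign changed. Of the called results 0 reversed. Causes of the changes below were not tested. The log2 ratio of CGE to CTX for Rmst was 0.37, 0.57 with thinned cells and 0.59 as a mean over cells, and that of LGE to CGE for Six3os1 was 0.53 and 0.64 as a mean over cells. In the stage test without the library block Rmst was at 2.02 (adjusted p = 0.122), Prox1os at 4.04 (adjusted p = 0.0511), and Prox1 at 2.32 (adjusted p = 0.117). Miat reached 0.89 with gates at 2.0. Leaving out 1 library gave 2.39 to 4.07 for Rmst and 0.40 to 1.43 for Six3os1. The number of genes higher in SVZ cells was 1642, 1037 with thinned cells and 949 to 1518 without 1 library. Six3os1 by Six3 in progenitors was 1.28 with another draw, 1.05 with a larger thinned depth and 1.23 at full depth. Rmst by Sox2 was -1.79 at full depth and -2.23 to -1.08 without 1 library.

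For Miat in high-Dcx cells, DESeq2 gave 3 higher and 1 lower, no filter on low counts 48 and 148, another draw 36 and 59, and leaving out 1 library 3 to 25 and 0 to 103. For Miat in high-Nestin cells, DESeq2 gave 33 and 18, and leaving out 1 library 44 to 142 and 27 to 101. For Rmst, DESeq2 gave 56 and 75, no filter 356 and 413, and leaving out 1 library 0 to 643 and 0 to 555. For Six3os1, DESeq2 gave 68 and 39, and leaving out 1 library 65 to 154 and 48 to 109. Over all alternatives, neighbour splits in high-Dcx cells ranged from 82 to 1087 higher and 103 to 1373 lower genes for Prox1, 17 to 366 and 12 to 218 for Six3, and 10 to 661 and 59 to 774 for Sox2. In high-Nestin cells they ranged from 0 to 150 and 0 to 127 for Six3, and 1 to 55 and 20 to 108 for Sox2. Prox1os in the stage test gave no value without CGE, with gates at 2.0 or with thinned cells.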
